A study of Mus musculus with 10 samples.

Results

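The genes described here are 10 genes of the major histocompatibility complex (MHC) class I antigen presentation route, measured by RNA sequencing in leukemic mouse spleens. They were chosen by symbol, not by their values, from the 20813 genes of the deposited table: H2-K1, H2-D1, B2m, Tap1, Tap2, Tapbp, Psmb8, Psmb9, Psmb10 and Nlrc5. All 10 were in the table and all 10 were among the 15276 genes tested, which had a mean normalized count of at least 10. T-cell acute lymphoblastic leukemias (T-ALL, cancers of immature T cells) with a conditional Sirt1 allele had been injected into the veins of mice irradiated below the lethal dose. The recipients of 1 group were given tamoxifen, 3 mg per mouse in corn oil, into the abdominal cavity, and those of the other corn oil alone. The genotype label calls the 5 tamoxifen spleens Sirt1 deleted and the 5 corn oil spleens Control, so effects of tamoxifen and of the deletion cannot be told apart. The strain label is C57BL/6 throughout. As described, the conditional allele, the transplantation and the irradiation are common to both groups. Recipient age, the Cre line and the number of primary leukemias are not given in the sources used here. Nor do the labels say whether each sample is a separate recipient, so p-values measure the spread between these samples.

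Class I molecules show short peptides from the inside of a cell to cytotoxic T cells. A heavy chain (H2-K1 or H2-D1) pairs with the light chain B2m in the endoplasmic reticulum. Proteasomes cut the peptides, the transporter formed by Tap1 and Tap2 carries them across the membrane, and the chaperone Tapbp (tapasin) holds the empty class I molecule at that transporter. Interferons are known to raise most of these genes, among them Psmb8, Psmb9 and Psmb10, which replace the standard catalytic subunits Psmb5, Psmb6 and Psmb7 to form the immunoproteasome. Nlrc5 is the transactivator that acts on class I promoters through a composite element of S, X and Y boxes.

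The promoters of the chains are shown because Nlrc5 is itself a member and the chains are the standard targets of that element. RefSeq promoter windows on GRCm38.p6, from 250 bases before to 50 bases after the annotated start, matched 8 of the 10 genes; Tap2 and Nlrc5 are named only. Capitals mark 3 features searched on both strands: a kB site (GGGNNTTCC), the core of an interferon-stimulated response element (AANNGAAA, in capitals as TTTCACTT where it lies on the other strand), and an X2 half-site TGACG followed after 18 to 22 bases by a Y box ATTGG. Each line reads 5′ to 3′ on the gene's own strand.
H2-K1, minus strand, chr17:34000298-34000597: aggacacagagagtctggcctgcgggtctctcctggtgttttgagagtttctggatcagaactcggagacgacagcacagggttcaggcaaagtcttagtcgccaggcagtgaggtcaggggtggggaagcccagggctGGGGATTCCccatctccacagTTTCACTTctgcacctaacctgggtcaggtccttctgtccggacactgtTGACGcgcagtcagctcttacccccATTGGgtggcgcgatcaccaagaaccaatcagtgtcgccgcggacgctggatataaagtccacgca
H2-D1, plus strand, chr17:35262844-35263143: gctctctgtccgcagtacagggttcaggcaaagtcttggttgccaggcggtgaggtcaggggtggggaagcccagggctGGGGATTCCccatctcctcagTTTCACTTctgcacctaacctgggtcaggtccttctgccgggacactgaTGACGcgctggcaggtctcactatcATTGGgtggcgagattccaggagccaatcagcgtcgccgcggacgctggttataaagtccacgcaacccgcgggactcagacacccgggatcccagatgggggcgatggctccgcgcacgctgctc
B2m, plus strand, chr2:122147437-122147736: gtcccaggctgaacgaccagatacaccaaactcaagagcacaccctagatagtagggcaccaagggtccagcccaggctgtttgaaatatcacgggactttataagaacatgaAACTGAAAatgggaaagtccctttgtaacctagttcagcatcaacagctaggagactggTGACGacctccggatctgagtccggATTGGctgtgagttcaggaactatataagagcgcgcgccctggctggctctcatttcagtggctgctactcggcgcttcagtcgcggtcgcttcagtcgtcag

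All 3 chain promoters held the X2 and Y pair, with 20 bases between X2 and Y in each. This pair was in 88 of all 32851 RefSeq promoter windows of this length (0.268%). A match to the kB pattern GGGNNTTCC was in the H2-K1 and H2-D1 windows and in 1912 of all windows (5.82%). In both heavy chain windows it preceded the response element core. The B2m window held no match to this pattern, but longer forms of the kB site were not searched in any window. A kB site of another form in the B2m window is thus not excluded. The core was in all 3 chain windows, but it is common, in 23.9% of all windows. None of the 3 features was found in the windows of Tap1, Psmb9, Psmb8, Psmb10 or Tapbp. The windows of Tapbp (from 33919228), Psmb8 (from 34197945), Psmb9 (34187281 to 34187580, minus strand) and H2-D1 lie inside the gene as annotated in GENCODE M21. A start further upstream was thus not searched for them. A CCAAT box, also searched, was in the windows of Tap1, Psmb9 and Tapbp, in all 3 chain windows and in 37.4% of all windows. A further interferon motif, the gamma-activated sequence TTCNNNGAA, was in the Psmb8 window and in 8.30% of all windows. A match is a description of letters and not of a bound site. The patterns were chosen after these windows were seen, so the shares over all windows do not measure how unusual the matches are. Tap1 and Psmb9 start head to head on chromosome 17, and their windows share 275 of 300 bases.
Tap1, plus strand, chr17:34187306-34187605: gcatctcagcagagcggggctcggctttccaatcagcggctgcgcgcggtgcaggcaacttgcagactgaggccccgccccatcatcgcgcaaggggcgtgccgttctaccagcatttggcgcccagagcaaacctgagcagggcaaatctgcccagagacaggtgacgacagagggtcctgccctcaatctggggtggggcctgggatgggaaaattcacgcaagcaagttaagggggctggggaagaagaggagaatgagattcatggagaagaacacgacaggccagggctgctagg

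The members lie on 3 chromosomes (GENCODE M21, GRCm38). Psmb9 (17: 34181987 to 34187764, minus strand), Tap1 (34187553 to 34197225, plus), Psmb8 (34197721 to 34201454, plus) and Tap2 (34203527 to 34216321, plus) are adjacent in the MHC. Tapbp (17: 33915899 to 33929292), H2-K1 (17: 33996017 to 34000347) and H2-D1 (17: 35262730 to 35267499) are on the same chromosome. B2m is on chromosome 2 (122147686 to 122153083), and Nlrc5 (94434356 to 94527272) and Psmb10 (105935735 to 105938444) are on chromosome 8.

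Deposited normalized counts summed to about 33660200 to 34472000 per sample. Sirt1 itself did not separate the groups: it ranged from 1715 to 2097 in the spleens labelled Sirt1-deleted and from 1735 to 1909 in controls (limma adjusted p = 0.568 for a log2 difference of 0.05 with SE 0.06). The labels do not say which part of the gene is removed, so this gene-level value may not bear on the deletion, and the tamoxifen group is referred to by its label. T lineage content was read from 12 T lineage markers (such as Cd3e, Lck and Thy1), all of them above the minimum mean. Their summed level was at least 154913 in every sample, against at most 27244 for 10 B cell markers. Normal T cells carry such markers too, so these values cannot check the T-ALL label itself. In a mixed spleen, fewer cells of a type and less RNA per cell cannot be told apart. Among the members, 2 libraries stood apart from their groups. Control replicate 2 had the lowest control value for 10 of 10 members, where it was the lowest control for 23.9% of all tested genes. Within the other group, replicate 10 gave the lowest value for 8 of 10 members, and for 24.8% of all tested genes. For the members and the ratios, results without them are given where a call changes.

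Class I presentation genes were higher in the labelled Sirt1-deleted spleens for 6 of the 10 members, by 1.23-fold to 1.68-fold: Nlrc5, Psmb10, Tapbp, Psmb9, H2-K1 and Tap1. The other 4, H2-D1, Tap2, B2m and Psmb8, did not pass the test. An exact rank-sum test called 4 of the 6 and not Nlrc5 or H2-K1, whose groups overlap. None was lower by limma, by an exact rank-sum test or at an unadjusted p under 0.05 (0 in each case). Across all tested genes 36.1% were called in either direction, 16.8% as higher and 19.4% as lower, so a call alone is common in this comparison. The median log2 difference of the 10 members was 0.36, beside -0.00014 over all tested genes, whose 5th and 95th percentiles were -0.53 and 0.96. No member reached a log2 difference of 1. The scaling shifts the direction of calls over all genes: among called genes, 46.4% were higher as deposited and 58.5% after upper-quartile rescaling. Under each of 3 scalings (deposited, upper quartile, quantile) all 6 were called as higher.

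**Figure D1:**
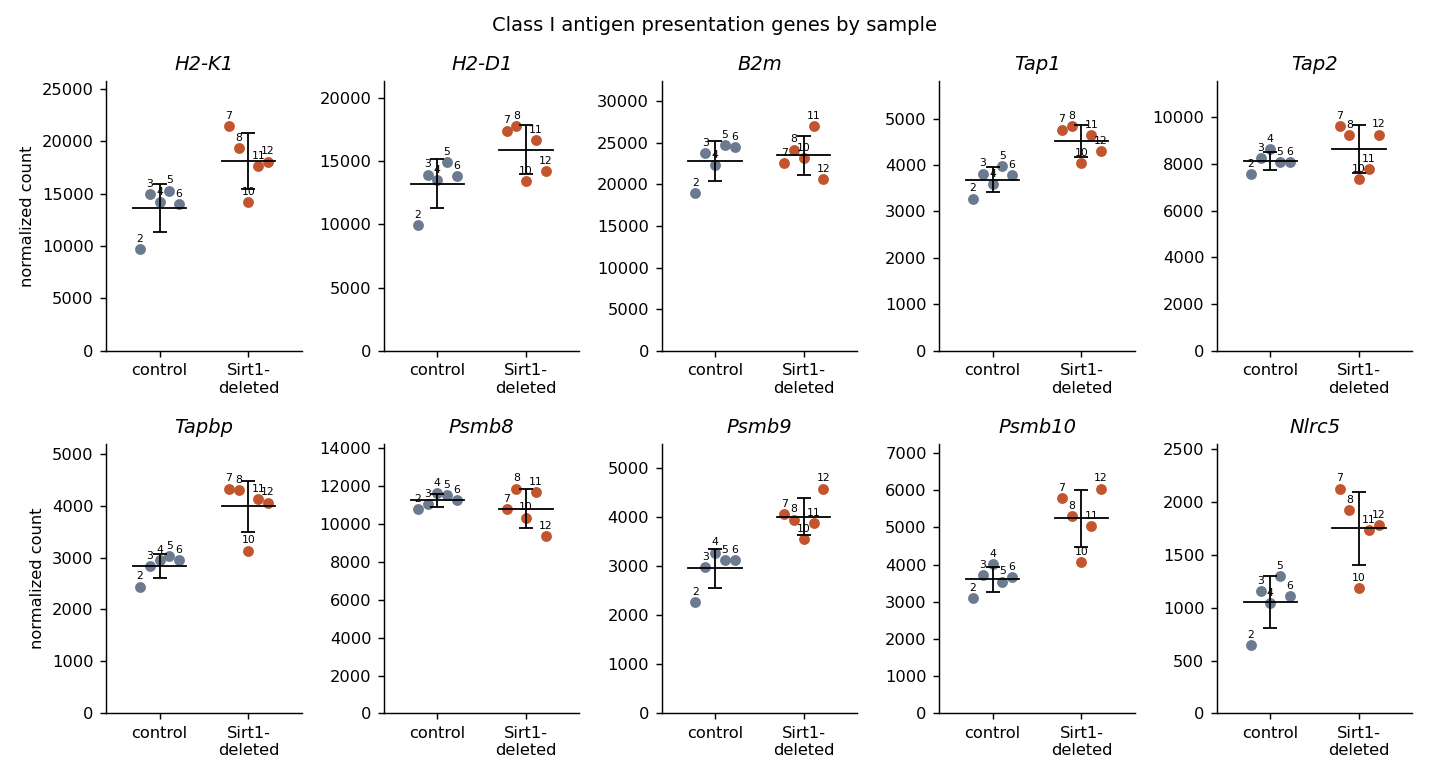
Normalized counts of the 10 genes in each sample, with axes from 0; points carry replicate numbers, lines are group means and bars SD (n = 5). For Tap1, Tapbp, Psmb9 and Psmb10 every labelled Sirt1-deleted sample lies above every control, while for Psmb8 and B2m the groups overlap.

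Among the heavy chains, H2-K1 rose and H2-D1 did not pass. Values are given here and below for control replicates 2, 3, 4, 5 and 6 and then for labelled Sirt1-deleted replicates 7, 8, 10, 11 and 12. H2-K1 measured 9698, 14977, 14204, 15293 and 14028 normalized counts in controls and 21466, 19331, 14195, 17626 and 18053 in the labelled Sirt1-deleted spleens. Replicate 10 sat among the controls, and the other 4 lay above the highest control. The means were 13640 ± 2265 and 18134 ± 2661 (SD over 5 samples each; limma adjusted p = 0.0236 for a log2 difference of 0.42 with SE 0.13). The call was lost without labelled Sirt1-deleted replicate 7 (0.35, limma adjusted p = 0.0610) or replicate 8 (0.39, limma adjusted p = 0.0510) and in limma without an intensity trend (limma adjusted p = 0.0537). Without control replicate 2 it stayed, at 0.30 (limma adjusted p = 0.0390).

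H2-D1 measured 9913, 13943, 13493, 14954 and 13825 in controls and 17423, 17787, 13449, 16638 and 14236 in the labelled Sirt1-deleted spleens. Here replicates 10 and 12 fell within the control range. The log2 difference was 0.27 (SE 0.11, 95% interval 0.03 to 0.51, limma adjusted p = 0.0704). It passed without labelled Sirt1-deleted replicate 10 (0.33, limma adjusted p = 0.0287), with sample weights (0.29, limma adjusted p = 0.0265) and after upper-quartile rescaling (0.33, limma adjusted p = 0.0344). It was 0.17 and did not pass without control replicate 2 (limma adjusted p = 0.144). With that control and replicate 10 both left out, a pair chosen after seeing the data, it was 0.23 and passed (limma adjusted p = 0.0265), as it did without replicates 10 and 11 (0.32, limma adjusted p = 0.0455). Both chains belong to a family of near-identical genes, so their counts are uncertain: of the 31-base words in the H2-K1 transcripts of GENCODE M21, 22.8% also occur in transcripts of other genes, and 26.9% of those of H2-D1. H2-K1 and H2-D1 share 358 such words. How the kallisto estimates split such reads was not tested.

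The light chain B2m, which every class I molecule needs, measured 18910, 23729, 22350, 24717 and 24519 in controls and 22563, 24191, 23201, 27030 and 20669 in the labelled Sirt1-deleted spleens. The groups overlapped almost wholly. The log2 difference was 0.04 (95% interval -0.14 to 0.22, limma adjusted p = 0.713), and its sign turned without control replicate 2 (-0.02, limma adjusted p = 0.841) or without labelled Sirt1-deleted replicate 11 (-0.0076, limma adjusted p = 0.952). The B2m transcripts share no 31-base word with another gene (0 of 830).

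**Figure D2:**
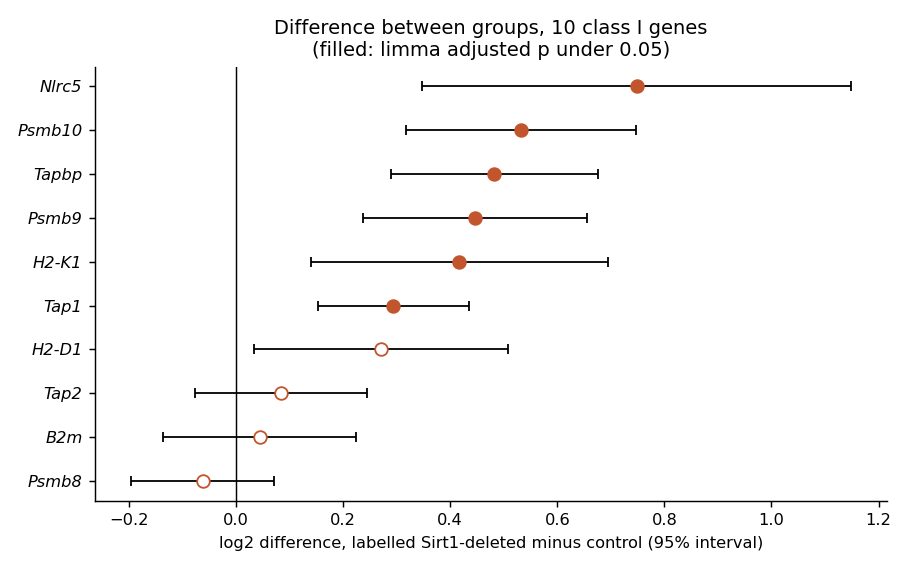
Log2 difference of each gene, labelled Sirt1-deleted minus control, with 95% intervals from limma; filled points passed at an adjusted p under 0.05. Nlrc5 is at 0.75 with the widest interval, 0.35 to 1.15, and Psmb8 is at -0.06 with an interval across 0.

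Of the transporter and its chaperone, Tap1 and Tapbp rose, and Tap2 did not pass. Tapbp measured 2442, 2838, 2953, 3023 and 2957 in controls and 4325, 4300, 3133, 4120 and 4055 in the labelled Sirt1-deleted spleens (means 2843 ± 234 and 3986 ± 491, SD over 5 samples each; limma adjusted p = 0.00217 for a log2 difference of 0.48 with SE 0.09). The groups did not overlap, with replicate 10 just above the highest control. The annotation marks Tapbp as overlapping another locus, and 26.9% of its 31-base words occur in other genes, so its level is uncertain. Tap1 measured 3274, 3812, 3581, 3977 and 3780 in controls and 4759, 4839, 4040, 4643 and 4304 in the labelled Sirt1-deleted spleens (limma adjusted p = 0.00507 for a log2 difference of 0.29 with SE 0.07). These groups did not overlap either, and replicate 10 was again the nearest to the controls.

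Tap2, the partner of Tap1 in the transporter, measured 7567, 8237, 8618, 8060 and 8075 in controls and 9620, 9213, 7343, 7767 and 9248 in the labelled Sirt1-deleted spleens. Its labelled Sirt1-deleted samples split, with replicates 7, 8 and 12 above every control, replicate 10 below every control and replicate 11 above control replicate 2 alone. The log2 difference was 0.08 (95% interval -0.08 to 0.24, limma adjusted p = 0.399). Without replicates 10 and 11 together it was 0.21 (limma adjusted p = 0.00508), but these are the 2 lowest Tap2 values of their group, so that value is a description and no support for a difference. Of the 31-base words of Tap2, 14.3% also occur in other genes, most of them in Gm15821 (428 words), so its level is uncertain.

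The immunoproteasome subunits did not move alike. Psmb10 measured 3098, 3719, 4021, 3542 and 3665 in controls and 5782, 5313, 4069, 5037 and 6042 in the labelled Sirt1-deleted spleens (means 3609 ± 336 and 5249 ± 767, SD over 5 samples each; limma adjusted p = 0.00225 for a log2 difference of 0.53 with SE 0.10). Psmb9 measured 2264, 2977, 3275, 3121 and 3129 in controls and 4066, 3949, 3546, 3885 and 4579 in the labelled Sirt1-deleted spleens (limma adjusted p = 0.00451 for a log2 difference of 0.45 with SE 0.10). In both genes the groups did not overlap, and replicate 12 was the highest sample. The Psmb9 and Tap1 transcripts overlap at their starts and share 182 of the 31-base words.

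Psmb8, which takes the place of Psmb5, measured 10798, 11049, 11632, 11517 and 11289 in controls and 10783, 11875, 10352, 11680 and 9374 in the labelled Sirt1-deleted spleens. Replicate 12, the highest for Psmb9 and Psmb10, was the lowest for Psmb8. The log2 difference was -0.06 (95% interval -0.20 to 0.07, limma adjusted p = 0.448), and it stayed negative and short of the threshold under every alternative run for it. Of the 31-base words of Psmb8, 13.7% also occur in other genes, most of them in Gm20496 (446 words), so its level is uncertain. In all, the groups did not overlap for 4 of 10 members, all higher (Tap1, Tapbp, Psmb9 and Psmb10). Of all tested genes, 11.1% were higher and 12.9% lower without overlap.

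Nlrc5 showed the largest log2 difference among the members. It measured 643, 1158, 1041, 1301 and 1112 in controls and 2127, 1925, 1189, 1732 and 1779 in the labelled Sirt1-deleted spleens (means 1051 ± 247 and 1751 ± 349, SD over 5 samples each; limma adjusted p = 0.00848 for a log2 difference of 0.75 with SE 0.18). Control replicate 2 was far below the other controls, and labelled Sirt1-deleted replicate 10 fell inside the control range. Without control replicate 2 the log2 difference was 0.58 (limma adjusted p = 0.0133), without replicate 10 it was 0.88 (limma adjusted p = 0.00175), and with both left out, a choice made after seeing the data, it was 0.71.

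**Figure D3:**
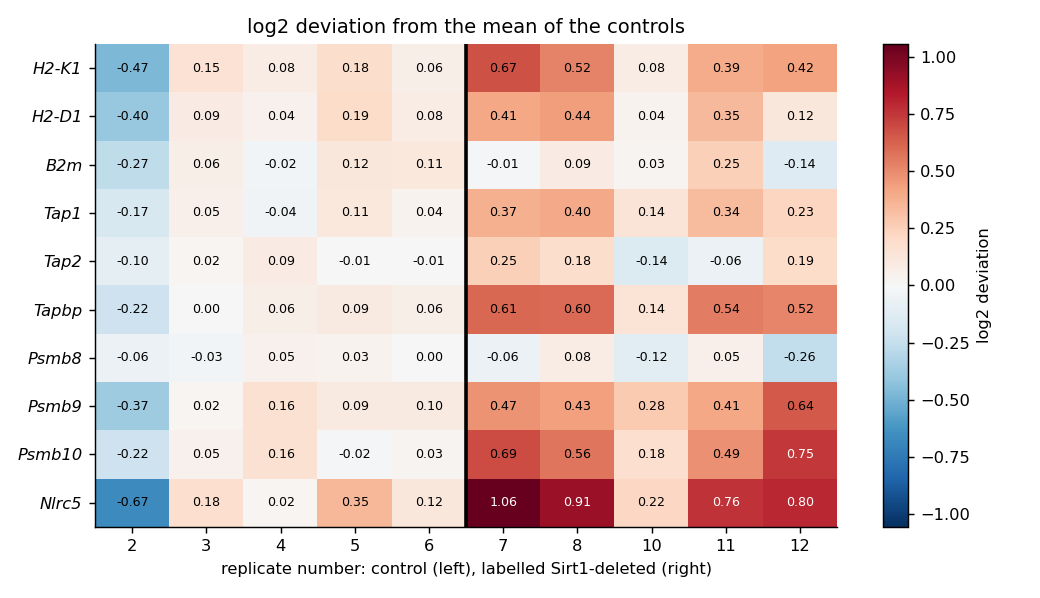
Log2 deviation of each sample from the mean of the 5 controls, gene by gene (red above, blue below), with controls on the left and labelled Sirt1-deleted samples on the right. The column of control replicate 2 is negative for all 10 genes, and that of labelled Sirt1-deleted replicate 10 has the lowest median of its group, 0.11.

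The median log2 deviation of the 10 members from the control mean was -0.24 in control replicate 2 and 0.05 to 0.10 in the other controls. It was 0.11 in labelled Sirt1-deleted replicate 10 and 0.33 to 0.44 in the other 4.

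Per kilobase of the longest coding transcript in GENCODE M21, B2m had the highest level of the members, at 26564 ± 2778 normalized counts per kb in controls (SD, n = 5). H2-K1 followed at 8425 ± 1399, Psmb8 at 6915 ± 209 and H2-D1 at 6292 ± 918 per kb. Mean ± SD overlapped between each pair of these 3 genes (H2-K1, Psmb8 and H2-D1). Psmb10 at 2753 ± 256, Tap2 at 2357 ± 110 and Psmb9 at 2184 ± 295 per kb formed a middle group, of which Tap2 and Psmb9 overlapped. Tap1 (1248 ± 91.2 per kb) and Tapbp (981 ± 80.7) were lower, and Nlrc5 was lowest at 139 ± 32.6 per kb. The member with the lowest level per length thus had the largest log2 difference, and the one with the highest level did not pass.

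Ratios of 2 genes within a sample do not depend on the scaling between samples. For 6 such ratios, p-values came from an exact permutation test, two-sided, whose smallest possible p is 0.00794, and were adjusted over the 6. The ratio of Psmb8 to Psmb5, the immunoproteasome subunit to its standard counterpart, was 2.31 ± 0.103 in controls and 1.94 ± 0.118 in labelled Sirt1-deleted spleens (SD over 5 samples each; p = 0.00794 by exact permutation, 0.0238 after adjustment). The ratio was lower in 5 of 5 samples than in any control. Psmb5 itself was higher (log2 difference 0.19, limma adjusted p = 0.0145), while Psmb8 did not pass.

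The ratio of Psmb10 to Psmb7 went the other way, from 0.576 ± 0.0551 to 0.972 ± 0.276 (SD over 5 samples each; p = 0.00794 by exact permutation, 0.0238 after adjustment). In labelled Sirt1-deleted replicates 10 and 11 it was 0.641 and 0.773, and in replicates 7 and 12 it was 1.17 and 1.32, against at most 0.636 in a control. Psmb7 had a log2 difference of -0.18 that did not pass (limma adjusted p = 0.120). Psmb9 to Psmb6 was 0.609 ± 0.0713 in controls and 0.727 ± 0.0867 in labelled Sirt1-deleted spleens (SD over 5 samples each; p = 0.0159 by exact permutation, 0.0317 after adjustment), with Psmb6 higher by 0.19 (limma adjusted p = 0.00646). Relative to their counterparts, then, Psmb10 and Psmb9 were higher and Psmb8 lower.

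H2-K1 to B2m was 0.594 ± 0.0519 in controls and 0.778 ± 0.144 in labelled Sirt1-deleted spleens (SD over 5 samples each; p = 0.0397 by exact permutation, 0.0397 after adjustment). H2-D1 to B2m was 0.577 ± 0.0338 and 0.678 ± 0.0804 (SD over 5 samples each; p = 0.0397 by exact permutation, 0.0397 after adjustment). Tap1 to Tap2 was 0.455 ± 0.0307 and 0.527 ± 0.0510 (SD over 5 samples each; p = 0.0317 by exact permutation, 0.0397 after adjustment). Leaving out 1 sample in turn, Psmb8 to Psmb5 and Psmb10 to Psmb7 passed in 10 of 10 fits, Psmb9 to Psmb6 in 4, Tap1 to Tap2 in 3, and each heavy chain to B2m in 1. Without control replicate 2, Psmb9 to Psmb6, Tap1 to Tap2 and each heavy chain to B2m did not pass. The adjusted permutation p was 0.0635 for Psmb9 to Psmb6 and 0.0794 for each of the others. Without labelled Sirt1-deleted replicate 10, Tap1 to Tap2 did not pass (adjusted permutation p = 0.0635). With 9 samples the smallest possible p is 0.0159.

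**Figure D4:**
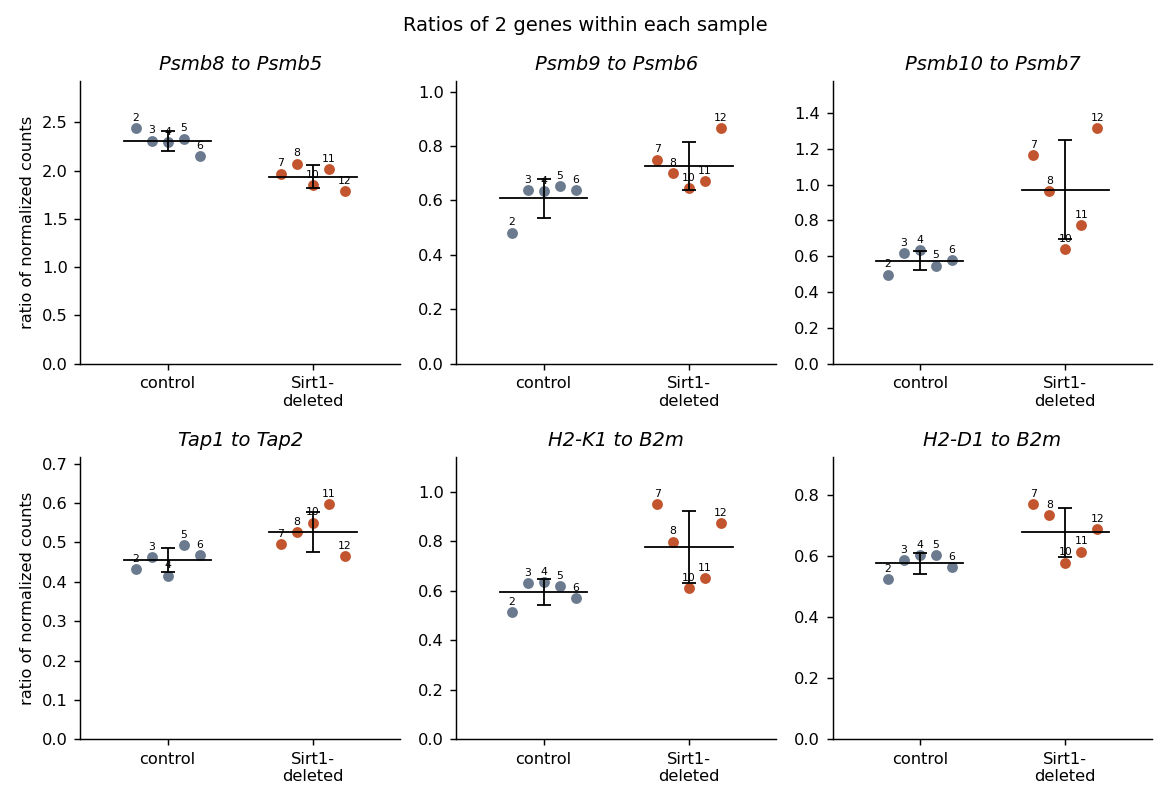
Ratios of normalized counts of 2 genes within each sample (axes from 0), with replicate numbers, group means and SD (n = 5). Psmb8 to Psmb5 is between 1.79 and 2.07 in all labelled Sirt1-deleted samples and between 2.15 and 2.44 in all controls, and Psmb10 to Psmb7 spreads from 0.641 to 1.32 in the former.

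The wider pathway was read from 81 further genes, of which 67 were tested. Of these, 20 were higher, 14 lower and 33 did not pass (limma adjusted p under 0.05), with a median log2 difference of 0.04. That is 50.7% called, beside 36.1% of all tested genes.

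Among 19 other class I and class I-like chains tested, 6 were higher and 2 lower. H2-T24 rose from 326 ± 52.1 to 673 ± 114 (SD over 5 samples each; limma adjusted p = 3.65e-04 for a log2 difference of 1.04 with SE 0.13). H2-T23, the nonclassical chain Qa-1 that shows leader peptides of other class I chains, rose from 2405 ± 185 to 3733 ± 567 (limma adjusted p = 0.00111 for a log2 difference of 0.62 with SE 0.10), with no overlap between groups. H2-Q6 was higher by 0.69 (limma adjusted p = 0.0375) with overlapping groups. Counts of these genes are subject to the same sharing of sequence as H2-K1. Mr1, which presents vitamin metabolites to mucosal T cells, was among the lower ones (log2 difference -0.50, limma adjusted p = 0.00609), as was H2-Q1 (-0.36, limma adjusted p = 0.0277).

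Of 9 genes for peptide loading and folding in the endoplasmic reticulum, 3 were higher and 1 lower. The chaperone gene Hsp90b1 rose by 0.39 (SE 0.07, limma adjusted p = 0.00236). Erap1, the peptidase that trims class I peptides after transport, fell by 0.28 on the log2 scale (SE 0.09, limma adjusted p = 0.0335), with replicate 12 lowest at 3170. Calr, a chaperone of the loading complex, measured 20273 ± 1147 in controls and 20882 ± 2702 in labelled Sirt1-deleted spleens (SD, n = 5 each; limma adjusted p = 0.776).

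Among the 9 proteasome counterparts, caps and assembly factors, 4 were higher and 1 lower. Both subunits of the interferon-inducible PA28 cap rose, Psme2 from 4897 ± 228 to 6604 ± 518 (SD over 5 samples each; limma adjusted p = 5.85e-04 for a log2 difference of 0.43 with SE 0.06) and Psme1 by 0.27 (SE 0.07, limma adjusted p = 0.00931). Psme4, which encodes the PA200 cap, fell by 0.35 on the log2 scale (limma adjusted p = 0.00843). Of 6 further peptidases tested, 1 was higher (Npepps, 0.20, limma adjusted p = 0.0203) and 2 were lower, among them Lnpep (-0.28, limma adjusted p = 0.00179).

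Transcription factors with a role at class I promoters divided, with 4 of 16 higher and 4 lower. Among the higher ones were the interferon signalling factors Irf9 by 1.04 (limma adjusted p = 2.96e-04), Stat2 by 0.40 (limma adjusted p = 0.00573) and Irf1 by 0.28 (limma adjusted p = 0.0351). The lower ones were Creb1 (-0.43, limma adjusted p = 0.00250), Nfya (-0.31, limma adjusted p = 0.00496), Nfkb1 (-0.30, limma adjusted p = 6.21e-04) and Rela (-0.24, limma adjusted p = 0.00920), which encode factors of the X2 site, the Y box and kB sites. Rfx5, of the X box complex, had a log2 difference of -0.23 that did not pass (limma adjusted p = 0.0729), and Irf2 one of -0.02 (limma adjusted p = 0.830). Ciita, the class II counterpart of Nlrc5, was low, at 32.2 to 63.8 in controls and 33.3 to 100.1 in labelled Sirt1-deleted spleens (limma adjusted p = 0.473).

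Ifng, the gene of interferon gamma, was too low to be tested, at 4.44 ± 2.97 normalized counts in controls and 7.57 ± 2.04 in labelled Sirt1-deleted spleens (SD over 5 samples each). Of 8 receptor and signalling genes tested, 2 were higher and 4 lower. The interferon-induced inhibitor Socs1 rose by 0.49 (limma adjusted p = 0.00906), and the kinase gene Jak2 fell by 0.45 on the log2 scale (limma adjusted p = 0.00163).

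**Figure D5:**
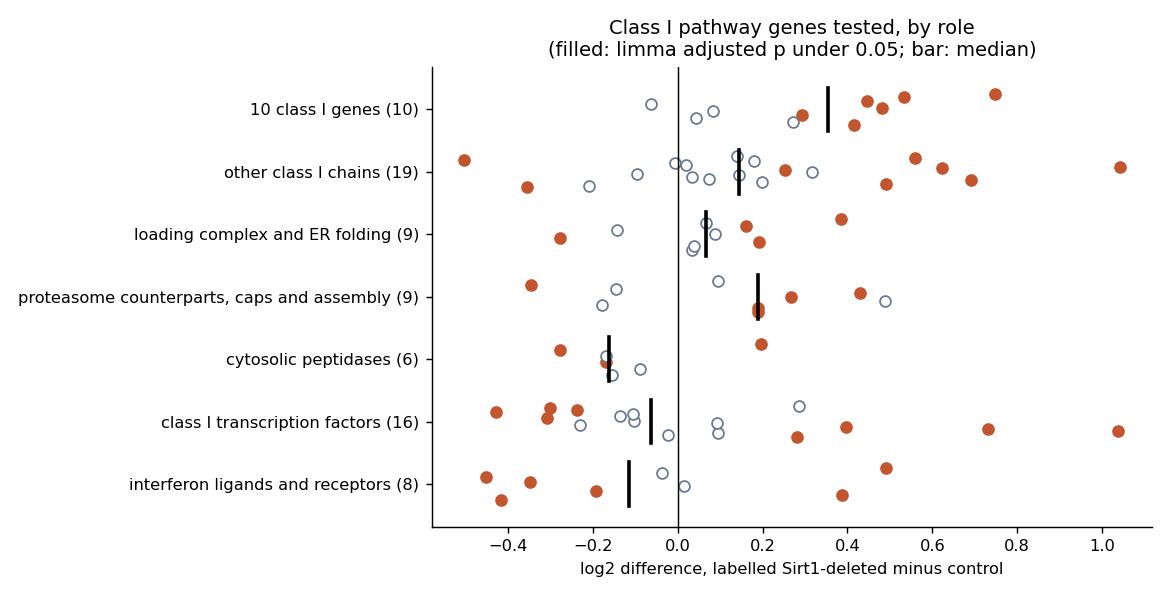
Log2 differences of the 10 class I genes and of 67 further pathway genes by role, with the number tested in brackets; filled points passed at an adjusted p under 0.05 and bars are medians. The median is 0.36 for the 10 genes and -0.11 for the list labelled interferon ligands and receptors. No ligand of that list could be tested, so its points are receptor and signalling genes. The transcription factors spread to both sides.

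The genes most like the members were sought among 10742 others with a mean of at least 100, by the root mean square difference between centred log2 values over the 10 samples and the mean profile of the 10 members. The closest were Kmt2d (0.062), Rnf5 (0.065), Lat (0.065), Psme1 (0.067) and Ap2s1 (0.069). Among the members themselves this measure ran from 0.065 for Tap1 and 0.076 for H2-D1 to 0.23 for Psmb8 and 0.28 for Nlrc5. Psme1 is the only one of the 5 that is in the pathway lists. Likeness of profile says nothing of shared function here.

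Markers of other cells moved with the groups. Of 14 neutrophil markers, 13 were higher, and their summed level was 8491 to 11792 in controls and 27246 to 94764.5 in labelled Sirt1-deleted spleens. Of 15 macrophage and monocyte markers tested, 12 were higher, with sums of 2906 to 3331 and 4993 to 7520. Of 12 dendritic cell and class II markers, 5 were higher, with overlapping sums of 4042 to 6005 and 4334 to 7290. Ccr9 weighed most in those sums, at 2459 in controls and 2620 in labelled Sirt1-deleted spleens on average. Labelled Sirt1-deleted replicate 10, lowest for 8 members, had the lowest sum of its group for neutrophil, macrophage, dendritic, T lineage (172836) and NK and cytotoxic markers (12785). Control replicate 2, lowest for all 10 members, had the lowest control sum of neutrophil (8491), T lineage (154913), B cell (18235) and NK and cytotoxic markers (10387), and the highest of macrophage markers (3331). Ighm made up most of the B cell sums, at 19266 in controls and 20921 in labelled Sirt1-deleted spleens on average. Gzma made up most of the NK and cytotoxic sums, at 13290 in controls and 14982 in labelled Sirt1-deleted spleens on average. The part of these cells in the class I values was not tested.

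None of the 10 B cell markers or of the 7 tested markers of NK and cytotoxic lymphocytes was called by limma (0 in each list; 2 and 1 at an unadjusted p under 0.05, and 0 by the rank-sum test). Sums of erythroid markers overlapped widely, at 45157 to 138144 in controls and 40696 to 164649 in labelled Sirt1-deleted spleens. Of 12 T lineage markers, 2 were higher and 2 lower. Their sum was 154913 to 168963 in controls and 172836 to 212308 in labelled Sirt1-deleted spleens, and Thy1 contributed most to that difference (53217 and 79592 on average; log2 difference 0.56, limma adjusted p = 0.00510). Of 7 stromal and endothelial markers tested, 2 were lower, with sums of 5699 to 6653 and 4929 to 5471. Pecam1 (3252 and 3192 on average) and Pdgfrb (2170 and 1459) weighed most in those sums. No listed marker was at 0 in all samples.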

How the data were processed

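RNA of red-cell-lysed spleen suspensions was sequenced as strand-specific Illumina libraries, per the labels' protocols. The submitters' processing notes name kallisto 0.44.0, DESeq and mm10; the transcript set and gene filter are not given in the sources used here. The deposited values are a normalized signal, DESeq-normalized counts by the table's name, and not raw counts, so no count test was run. They held 0 columns outside the 10 samples. Whole reads were not sought in the values, since kallisto estimates need not be whole, and read depth per sample is not known.

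Here log2(value + 1) of the 15276 genes with a mean of at least 10 was tested with limma 3.58.1 in R 4.3.3 (group only, intensity trend, Benjamini-Hochberg over all tested genes, threshold 0.05); the scale understates changes of low genes. The script was tested on simulated data. Ratios used exact permutation tests. Members, lists and named genes were chosen with earlier results of these data known, and the motifs after the promoter windows were seen (the kB pattern was shortened from a longer match). Named are the 10 members, Sirt1, 14 pathway genes, the 2 largest changes per pathway list among called genes with a mean of at least 100, and the 5 genes closest in profile; further called genes were named after their values were seen, and 1 gene under this rule is not reported here. The alternatives changed the pseudocount (0.1, 5), the minimum mean (none, 1, 50), the scaling (upper quartile, quantile), the limma fit (no trend, weighted samples), the test (exact rank-sum), the threshold and the samples kept. Of 81 pathway symbols, 70 matched the table and the others were not analysed. Shared 31-base words and lengths came from GENCODE M21, which may differ from the authors' transcript set.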

Additional observations from a re-analysis of the deposited data

Results flagged for a closer look

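In 104 sets of 5 samples (members, named genes, ratios and marker sums in each group), the distance from the extreme sample to the next, over the whole range, was examined. The ratio passed the critical value of 0.71 in 11, where chance at 1 in 20 gives 5.2. The sets share samples and are not independent. They include genes chosen from these same values, such as Rnf5 and Lat, picked for a profile close to that of the members. The count of 11 is therefore a description and no test against 5.2.

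Control replicate 2 was the lowest control in 6 of them. For H2-K1 it measured 9698 normalized counts against 14028 to 15293 in the other controls (ratio 0.774), and for H2-D1 9913 against 13493 to 14954 (ratio 0.7101). For Psme2 it measured 4492 against 4967 to 5043 (ratio 0.862), for Rnf5 1192 against 1436 to 1469 (ratio 0.882) and for Lat 15564 against 18257 to 19145 (ratio 0.752). Its ratio of Psmb9 to Psmb6 was 0.482 against 0.635 to 0.653 (ratio 0.900).

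Of the labelled Sirt1-deleted samples, replicate 10 was lowest for Tapbp, at 3133 against 4055 to 4325 (ratio 0.773), and for Irf9, at 1879 against 2638 to 2944 (ratio 0.713). Replicate 12 was the lowest for Erap1, at 3170 against 4190 to 4468 (ratio 0.786), and replicate 7 the lowest for Hsp90b1, at 27941 against 29796 to 30496 (ratio 0.726). Control replicate 4 had the highest control sum of neutrophil markers, 11792 against 8491 to 9255 (ratio 0.769).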

How the results depend on the processing

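No paired analysis was possible because no replicate number recurs in both groups. The calls of Nlrc5, Psmb10, Tapbp, Psmb9 and Tap1 as higher held in the 10 limma fits without 1 sample and under the other limma alternatives, except that requiring a log2 difference of at least 1. The rank-sum test called 4 members (Psmb10, Tapbp, Psmb9 and Tap1, and neither Nlrc5 nor H2-K1), 23 pathway genes and 3659 of all genes. Requiring a log2 difference of at least 1 left 0 members, 2 pathway genes (H2-T24 and Irf9) and 684 of all genes, and an adjusted p under 0.01 left 5 members, 21 pathway genes and 2850 of all genes, by construction of the stricter threshold. Without 1 sample, 5 to 7 members, 26 to 37 pathway genes and 4207 to 6259 of all genes were called. Without 1 sample, the log2 difference of B2m ran from -0.0227 to 0.0892. It turned to -0.00758 without labelled Sirt1-deleted replicate 11, -0.0227 without control replicate 2, -0.0198 without labelled Sirt1-deleted replicates 10 and 11 and -0.0190 without labelled Sirt1-deleted replicate 10 and control replicate 2, a pair chosen after seeing the data; the cause was not tested. For Tap1 to Tap2 the log2 ratio difference lost its call in the last 2 cases, at 0.124 (adjusted permutation p = 0.143) and 0.176 (adjusted permutation p = 0.114), with fewer samples. Without 1 sample, differences of log2 ratios ranged from 0.163 to 0.253 for Tap1 to Tap2, 0.175 to 0.298 for Psmb9 to Psmb6, 0.295 to 0.454 for H2-K1 to B2m and 0.179 to 0.282 for H2-D1 to B2m.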
